A study of Homo sapiens with 8 samples.

Results

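The genes described here are 10 readers and erasers of N6-methyladenosine (m6A), a methyl mark on RNA: YTHDF1, YTHDF2, YTHDF3, YTHDC1, YTHDC2, IGF2BP1, IGF2BP2, IGF2BP3, FTO and ALKBH5. Their rows were found by gene symbol, with no measured value used. All 10 were among the 27945 genes counted, and all 10 were among the 12844 genes with enough reads to be tested. Their ongoing transcription was measured by fast global run-on sequencing (fastGRO), in which RNA polymerases in isolated nuclei lengthen the RNA they were already making and only that RNA is captured. The cells were IMR90, an established strain of human fetal lung fibroblasts, grown at 2% oxygen. Senescence was induced with ER:RAS, a fusion of the estrogen receptor and H-RASG12V that was delivered by retrovirus and is switched on by 4-hydroxytamoxifen.

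There were 4 groups of 2 libraries. Control cells are labeled WT, with no shRNA. The other 3 groups were senescent cells. For such cells the paper's general methods give 100 nM 4-hydroxytamoxifen and collection at day 6, which the labels of these libraries do not state. These 3 groups differed in the hairpin they carried: 1 group had shControl, another shMETTL3 and the last shMETTL14, with a single hairpin per target delivered by lentivirus. Senescence and shRNA infection therefore cannot be told apart when senescent shControl cells are compared with control cells, and both knockdowns are compared with the same 2 shControl libraries. The library totals lay between 14897360 and 20306299 reads, of which 86.2% to 92.5% fell in 21 ribosomal RNA rows, which left 1513930 to 2048475 reads on all other genes. METTL3 had 16 and 19 reads with shMETTL3 against 77 and 47 with shControl, which passed the test used throughout (log2 fold change -2.04, adjusted p = 1.79e-05). METTL14 had 18 and 14 reads with shMETTL14 against 24 and 28 with shControl, a difference of -0.86 that did not pass (adjusted p = 0.0763). It was lower with shMETTL14 than with shMETTL3 (-1.41, adjusted p = 0.00101), and it had already fallen in senescent shControl cells against control cells (-0.76, adjusted p = 0.0472). These reads measure ongoing transcription and not mature RNA or protein, so they cannot show whether either knockdown worked. For both knockdowns the paper refers to a western blot. TOX4, which runs the other way, overlaps 7.91% of METTL3, and reads in that part cannot be assigned to either gene. All 8 fibroblast markers were transcribed, of which 7 fell and 1 rose in senescent shControl cells against control cells, and 6 fell with shMETTL14 and 2 with shMETTL3 against shControl. Of 5 senescence markers, CDKN1A and CDKN2B rose and LMNB1 fell in senescent shControl cells, while CDKN2A and CCNA2 did not pass. Against shControl, CDKN2B rose and LMNB1 fell with shMETTL3, and CDKN1A rose and LMNB1 and CCNA2 fell with shMETTL14. CDKN2B lies wholly within CDKN2B-AS1 on the opposite strand, so the reads of these genes cannot be told apart. The same holds for the fibroblast marker THY1, wholly within USP2-AS1, and for the 18.9% of VIM shared with VIM-AS1. Their part in the results below was not tested. Of the 4 epithelial genes, KRT18, which is not limited to epithelium and shares 24.7% of its span with KRT8 on the opposite strand, had 12 to 43 reads and was higher with shMETTL14 than with shMETTL3 (log2 fold change 1.63, adjusted p = 0.00136) and than in control cells (0.89, adjusted p = 0.0369), whereas EPCAM, KRT5 and CDH1 had at most 2 reads in any library. The leukocyte gene CD3E had no read, and none of the 3 leukocyte or 3 endothelial markers had enough reads to be tested.

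The m6A mark is written on messenger RNA in the nucleus, chiefly by the METTL3 and METTL14 enzyme, and what it does to a transcript depends on the proteins that read or remove it. Readers with a YTH domain hold the methylated adenosine in a pocket. YTHDF proteins act in the cytoplasm, where they are best known for speeding the decay of marked mRNA, YTHDC1 acts in the nucleus on splicing and export, and YTHDC2 is an RNA helicase best known from the germ line. The IGF2BP proteins bind marked mRNA through KH domains and are known for keeping it stable, whereas the erasers FTO and ALKBH5 take the methyl group off. The counts below report how much the genes for these proteins were transcribed, and no protein or methylation was measured here.

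Of the 10 genes, 4 differed between the knockdowns themselves (35.2% of all genes tested did) and 1 was called lower in senescent shControl cells than in control cells (13.3% of all genes), and the promoter sequences of these 5 genes are shown first so that the genes of these direct comparisons can be seen side by side. Each is a RefSeq window of 300 bases, 250 before and 50 after the start site, from the GRCh38.p14 table, and each was found unchanged at a single place on the same chromosome of hg19, the build of the counts. The windows lie at chr20:61847434-61847733 for YTHDF1 (minus strand), chr5:112849141-112849440 for YTHDC2 (plus), chr7:23510061-23510360 for IGF2BP3 (minus), chr16:53737818-53738117 for FTO (plus) and chr17:18086892-18087191 for ALKBH5 (plus), all in hg19. The RefSeq start lies 275 bases downstream of the counted start for ALKBH5, whose window is therefore wholly inside the counted gene, 193 downstream for FTO, 55 for YTHDF1 and 32 for YTHDC2, and the IGF2BP3 window lies wholly before its counted gene. Capitals mark any match, on either strand, to 7 short motifs (SP1 box, ETS, CCAAT box, AP-1, E-box, CRE and TATA box), whose letters are given after the sequences.
YTHDF1: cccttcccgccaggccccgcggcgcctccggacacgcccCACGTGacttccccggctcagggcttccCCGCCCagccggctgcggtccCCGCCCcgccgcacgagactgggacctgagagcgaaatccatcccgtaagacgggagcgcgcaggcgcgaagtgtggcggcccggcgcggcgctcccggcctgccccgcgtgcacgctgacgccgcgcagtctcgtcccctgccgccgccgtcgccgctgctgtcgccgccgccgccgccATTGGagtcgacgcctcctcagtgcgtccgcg
YTHDC2: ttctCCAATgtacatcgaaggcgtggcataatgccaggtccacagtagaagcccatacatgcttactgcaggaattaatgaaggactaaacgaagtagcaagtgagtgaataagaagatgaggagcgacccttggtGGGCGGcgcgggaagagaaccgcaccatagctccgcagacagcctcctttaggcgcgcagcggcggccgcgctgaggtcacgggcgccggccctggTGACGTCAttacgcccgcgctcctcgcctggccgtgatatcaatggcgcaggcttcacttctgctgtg
IGF2BP3: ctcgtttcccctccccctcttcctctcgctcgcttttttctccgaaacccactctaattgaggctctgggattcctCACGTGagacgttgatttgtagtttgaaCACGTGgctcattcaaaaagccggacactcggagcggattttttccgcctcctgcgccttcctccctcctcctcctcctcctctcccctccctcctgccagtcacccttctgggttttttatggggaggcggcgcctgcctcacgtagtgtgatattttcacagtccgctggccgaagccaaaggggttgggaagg
FTO: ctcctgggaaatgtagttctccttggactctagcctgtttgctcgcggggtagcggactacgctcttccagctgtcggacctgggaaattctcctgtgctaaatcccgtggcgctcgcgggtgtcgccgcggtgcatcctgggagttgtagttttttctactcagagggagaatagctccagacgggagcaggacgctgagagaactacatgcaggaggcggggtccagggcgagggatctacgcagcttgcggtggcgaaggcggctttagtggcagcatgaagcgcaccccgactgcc
ALKBH5: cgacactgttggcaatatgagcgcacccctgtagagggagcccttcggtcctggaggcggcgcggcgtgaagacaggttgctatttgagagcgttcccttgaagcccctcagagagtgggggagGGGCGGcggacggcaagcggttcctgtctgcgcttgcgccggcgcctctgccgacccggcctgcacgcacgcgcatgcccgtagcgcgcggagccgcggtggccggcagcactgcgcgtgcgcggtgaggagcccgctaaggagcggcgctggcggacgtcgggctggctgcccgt

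The windows differ in base composition. G and C made up 77.3% of the YTHDF1 window and 71.0% of the ALKBH5 window, against 58.3% for YTHDC2, 60.0% for FTO and 56.3% for IGF2BP3, with a median of 58.7% over all 35116 windows of the table. The YTHDF1 and ALKBH5 windows held 50 and 39 CpG dinucleotides, and the other 3 held 17 to 25. A window was found for 8 of the 10 genes. The SP1 box (GGGCGG) was in 6 of these 8 windows and in 45.0% of all windows. The CRE, searched as TGACGTCA, was in those of YTHDC1 and YTHDC2 and in 1.85% of all windows. The E-box, searched as CACGTG, was in those of YTHDF1 and IGF2BP3 and in 7.26% of all windows. The CCAAT box, searched by those letters, was in those of YTHDF1 and YTHDC2 and in 34.6% of all windows. None of the 8 windows held the ETS motif, searched as CCGGAAG and found in 10.3% of all windows. Nor did any hold the AP-1 motif, searched as TGANTCA and found in 7.71%, or the TATA box, searched as TATAAA and found in 11.5%. The letters of no motif are contained in those of another. The FTO window held none of the 7 motifs.

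Transcription per length set the genes apart. Counts are given on the TMM scale, that is, as normalized read counts with every library scaled to the same effective size, and a level per length divides them by the gene's length in kilobases (kb). Averaged over the 8 libraries, YTHDF3 had the highest level with 7.41 normalized counts per kb, followed by IGF2BP2 with 4.49, ALKBH5 with 4.20, YTHDF2 with 3.52, YTHDF1 and IGF2BP1 with 3.45 each, IGF2BP3 with 2.94, YTHDC2 with 1.94, FTO with 1.16 and YTHDC1 with 0.409. YTHDF3 was highest and YTHDC1 lowest in each of the 4 groups, but the order between them changed with the group. ALKBH5 had 3.12 normalized counts per kb in control cells, below IGF2BP3 (3.82), YTHDF2 (3.67) and IGF2BP1 (3.23), and 6.29 with shMETTL14, above IGF2BP2 (5.27). FTO had many reads because it is long, 410.5 kb, and ALKBH5 had few because it is short, 26.4 kb. Exons of the GENCODE annotation covered 1.75% (FTO) to 17.1% (YTHDC1) of the spans counted, so most of the counted span was intron.

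**Figure D1:**
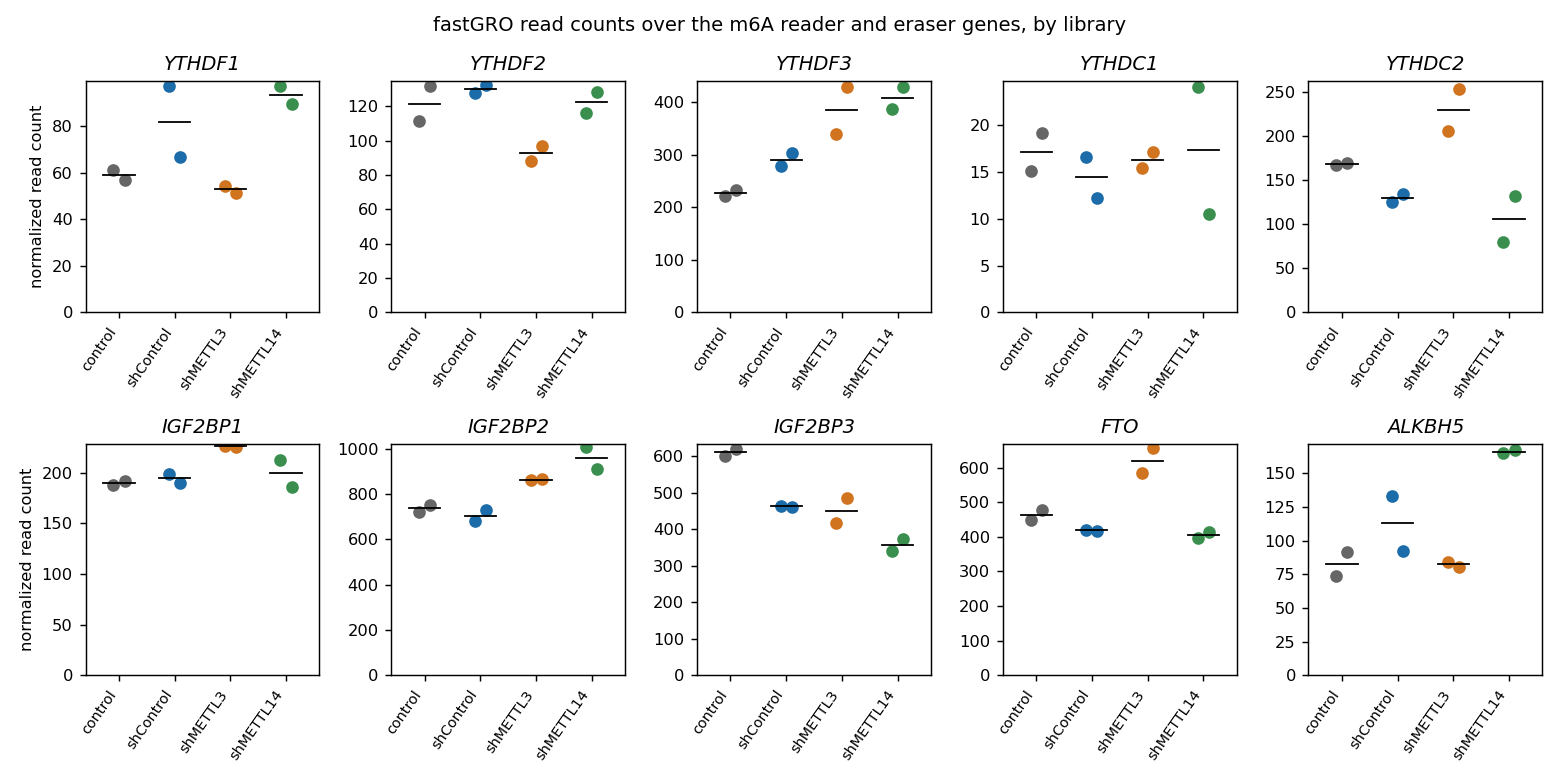
Normalized fastGRO read counts (vertical axes, starting at 0, scaled separately for each gene) of the 10 genes in control cells and in senescent cells with shControl, shMETTL3 or shMETTL14. Each point is 1 library and each line the mean of 2; YTHDC2 is highest with shMETTL3 (205 and 254), ALKBH5 is highest with shMETTL14 (165 and 167), and the control libraries hold the lowest YTHDF3 counts (221 and 233).

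Differences between groups were tested with edgeR's quasi-likelihood test, fitted to all 12844 genes and adjusted by the Benjamini-Hochberg method, and a gene is said to rise or fall only below an adjusted p of 0.05. Senescent shControl cells differed from control cells at 1 of the 10 genes, IGF2BP3, which was lower, against 26.6% of all genes tested (13.3% higher and 13.3% lower). With shMETTL3, 4 of the 10 differed from shControl, 3 higher and 1 lower, against 23.4% of all genes (12.3% and 11.2%). With shMETTL14, 3 of the 10 differed from shControl, all higher, against 21.2% of all genes (9.15% higher and 12% lower). The median log2 fold changes of the 10 genes in these comparisons were -0.014, 0.20 and 0.12, beside -0.03, -0.03 and -4.87e-05 over all genes tested. Between the knockdowns, 4 of the 10 genes differed, 2 higher and 2 lower with shMETTL14, against 35.2% of all genes (16.5% and 18.7%). Compared with control cells, 4 genes differed with shMETTL3, 3 higher and 1 lower, against 40.2% of all genes (20.1% each way), and 6 differed with shMETTL14, 4 higher and 2 lower, against 40.2% (19.7% and 20.5%). Counts out of 10 genes against these backgrounds do not set the readers and erasers apart as a group, and the results below concern single genes. Scaling to library size alone, in which ribosomal reads count, moved the median of all genes by -0.50 for shControl against control, by 0.61 for shMETTL3 and by 0.35 for shMETTL14, so a turn in direction under that scaling, where given below, goes with a shift of all genes.

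**Figure D2:**
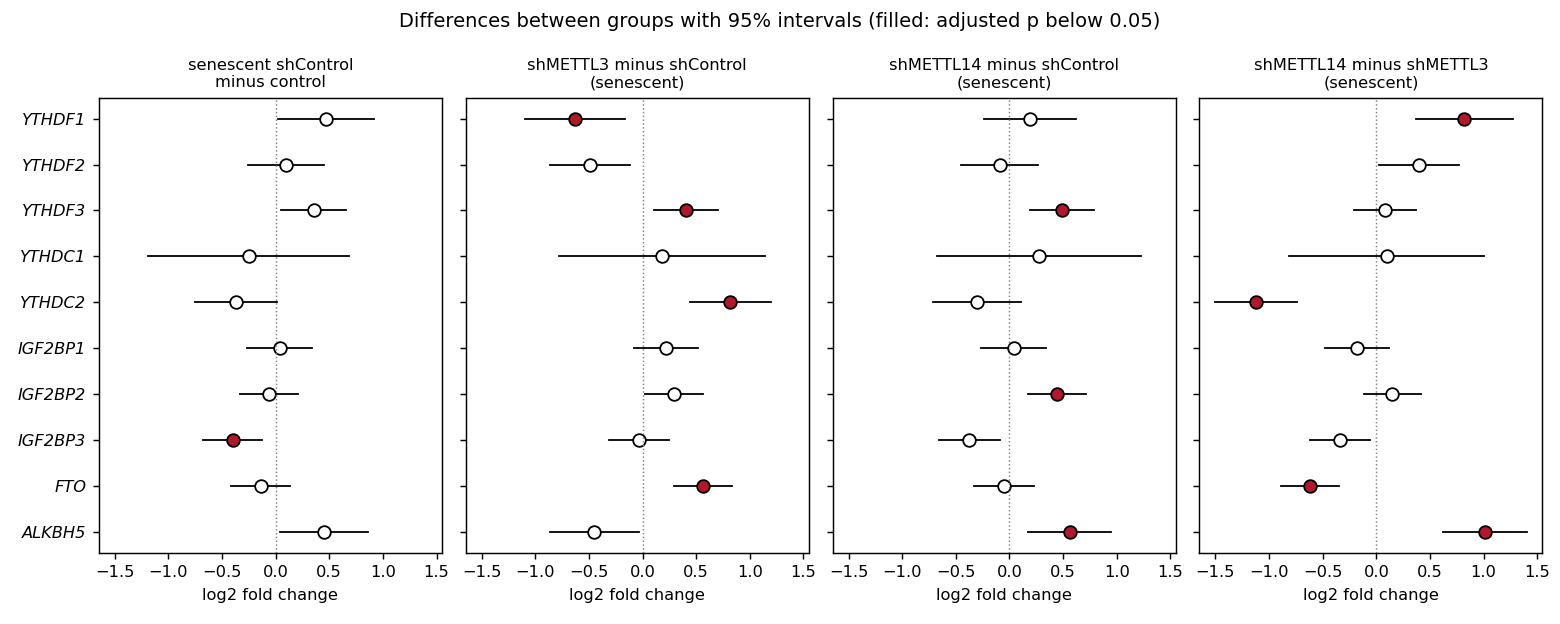
Log2 fold changes (horizontal axes) of the 10 genes in 4 comparisons, with 95% intervals from the edgeR fit as lines; filled points passed an adjusted p of 0.05. The interval of YTHDC2 between the knockdowns runs from -1.50 to -0.74 and that of ALKBH5 from 0.62 to 1.40, on opposite sides of 0.

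YTHDF3, one of the cytoplasmic YTHDF readers, was higher after both knockdowns. It spans chr8:64081186-64125346 on the plus strand (hg19). Its normalized counts were 221 and 233 in the control libraries, 278 and 303 in those with shControl, 339 and 429 for shMETTL3 and 387 and 428 for shMETTL14. The groups did not overlap except for the knockdowns with each other, and the second shMETTL3 library stood above the first. YTHDF3 rose 1.32-fold with shMETTL3 (log2 fold change 0.40, SE 0.14, adjusted p = 0.0431) and 1.40-fold with shMETTL14 (0.49, SE 0.14, adjusted p = 0.0162), each against shControl. Against control cells it rose 1.69-fold and 1.79-fold, with adjusted p-values of 0.000125 and 3.37e-05. The knockdowns themselves did not differ beyond the spread, with a 95% interval of the log2 difference from -0.20 to 0.37, and nor did senescent shControl and control cells pass the threshold (0.35, adjusted p = 0.0816, and -0.14 with library size scaling alone). The latter became a call with only those 2 groups in the fit (0.39, adjusted p = 0.00507) or without the first or second shMETTL3 library (0.0258 and 0.0249).

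The calls of YTHDF3 against control cells held in all 18 alternative settings, whereas those against shControl were less firm and were lost with DESeq2 (adjusted p = 0.129 for shMETTL3 and 0.0712 for shMETTL14). The call with shMETTL3 was lost in 9 of the 18, among them upper quartile scaling (0.0517), no filter on low counts (0.0622) and only the 2 groups in the fit (0.0807). Without the second shMETTL3 library its log2 fold change was 0.20 (adjusted p = 0.415). The adjusted p rose to 0.271 and 0.138 without the first and second shControl library, and to 0.0698 and 0.0702 without either control library. With shMETTL14 it rose to 0.103 without the second shMETTL14 library and to 0.162 and 0.0728 without either shControl library.

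YTHDF1, which is known for promoting translation of marked mRNA in some cells, fell with shMETTL3 and was higher with shMETTL14 than with shMETTL3. It spans chr20:61826782-61847538 on the minus strand and is the shortest of the 10 genes. Normalized counts were 61.1 and 56.6 in the control libraries, 96.9 and 66.8 in those with shControl, 54.4 and 51.3 for shMETTL3 and 97.0 and 89.5 for shMETTL14. The shControl libraries lay far apart, the higher of them level with the shMETTL14 libraries. YTHDF1 fell 1.54-fold with shMETTL3 against shControl (log2 fold change -0.63, SE 0.23, adjusted p = 0.0451), and with shMETTL14 it was 1.77-fold higher than with shMETTL3 (0.82, SE 0.22, adjusted p = 0.00459). With shMETTL14 it also exceeded control cells 1.58-fold (adjusted p = 0.0137), but against shControl the difference was 0.19 with an interval from -0.24 to 0.62 (adjusted p = 0.571).

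The fall of YTHDF1 with shMETTL3 rested on the first shControl library, without which the log2 fold change was -0.35 with an adjusted p of 0.465. It passed in 5 of 18 alternatives, DESeq2 gave an adjusted p of 0.21, library size scaling alone gave -0.0090 (adjusted p = 0.981), and the call was also lost without the second shMETTL3 library (0.114), either control library (0.0541 and 0.0534) or either shMETTL14 library (0.0593 and 0.0564). The difference between senescent shControl and control cells did not pass in the main fit (log2 fold change 0.47, adjusted p = 0.117). It became a call with only those 2 groups in the fit (0.51, adjusted p = 0.0473). It was 0.73 without the second shControl library and -0.030 with library size scaling alone. The differences of shMETTL14 from shMETTL3 and from control cells were lost without the first shMETTL14 library (adjusted p = 0.0651 and 0.0972), and with library size scaling alone (0.0693 and 0.0799). The latter was also lost without the second control library (0.0943) and with DESeq2 (0.085).

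YTHDF2, the reader best known for carrying mRNA to the CCR4-NOT deadenylase, passed the threshold in none of the 6 comparisons. It spans chr1:29063136-29096287 on the plus strand. Its normalized counts were 112 and 131 in the control libraries, 128 and 132 in those with shControl, 88.2 and 96.8 for shMETTL3 and 116 and 128 for shMETTL14. Both shMETTL3 libraries lay below the other 6. The log2 difference from shControl was -0.49 (SE 0.18, adjusted p = 0.0506), just short of the threshold. It passed with upper quartile scaling (adjusted p = 0.0403) and with at least 10 counts in every library (0.0373), as did the difference from control cells (0.0354 and 0.0423), whereas scaling to library size alone turned the difference from shControl to 0.13.

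YTHDC2, the helicase among the YTH proteins, had the widest range of the 10 genes, 1.15 on the log2 scale between its highest and lowest group mean. It spans chr5:112849359-112930984 on the plus strand, and its promoter window, shown above, holds a CRE that starts at position -18 from the start site. Normalized counts were 167 and 169 in the control libraries, 125 and 135 in those with shControl, 205 and 254 for shMETTL3 and 80.0 and 132 for shMETTL14. The shMETTL3 libraries were the highest of all 8, and the shMETTL14 libraries lay apart from each other, the second within the range of shControl. YTHDC2 rose 1.77-fold with shMETTL3 against shControl (log2 fold change 0.82, SE 0.18, adjusted p = 0.00165). With shMETTL14 it was 2.18-fold lower than with shMETTL3 (-1.12, SE 0.19, adjusted p = 3.34e-05). Its difference between shMETTL14 and shControl did not pass the threshold, with an interval from -0.71 to 0.11, and with library size scaling alone it was 0.039.

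Set in order, YTHDC2 was highest with shMETTL3, then in control cells, then with shControl and lowest with shMETTL14. Control cells lay below shMETTL3 (log2 fold change of shMETTL3 0.45, adjusted p = 0.0396) and above shMETTL14 (-0.67 for shMETTL14, adjusted p = 0.00557), while shControl did not differ beyond the spread from control cells (adjusted p = 0.151) or from shMETTL14 (0.308). The rise with shMETTL3 over shControl and the difference between the knockdowns passed in all 18 alternatives. The difference of shMETTL14 from control cells was lost without the first shMETTL14 library (log2 fold change -0.34, adjusted p = 0.261), and a call against shControl appeared without the second (-0.70, 0.0378). That of shMETTL3 from control cells was lost in 10 of the 18, among them leaving out the second shMETTL3 library (0.28, adjusted p = 0.258), either control library (0.16 and 0.141) or either shControl library (0.0585 and 0.0592).

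The pattern of YTHDC2 was shared most closely by APBA2, MBNL2, WDR60, EFNA5 and SRPK2, the 5 nearest of 3881 genes with a mean of at least 100 normalized counts. Likeness was the root mean square difference in log2 deviation over the 8 libraries, which was 0.07 for APBA2, 0.10 for MBNL2 and WDR60, 0.11 for EFNA5 and 0.13 for SRPK2. In APBA2, for example, the raw counts were 224 and 218, 120 and 140, 252 and 295, and 100 and 138, in the order of the groups above. In the order named, the 5 genes are 279.4, 171.8, 106.9, 294.0 and 273.0 kb long, against 81.6 kb for YTHDC2. All 5 lie in the longest of the length classes described below. The part of length in this likeness was not tested. The libraries and their depth are shared by all genes, so this is a description of these libraries.

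YTHDC1, the nuclear reader, was the least transcribed of the 10 genes and its counts were too low for the comparisons. It spans chr4:69176105-69215835 on the minus strand. Raw counts were 17 and 22 in the control libraries, 14 and 11 in those with shControl, 15 and 18 for shMETTL3 and 24 and 10 for shMETTL14. On the normalized scale the groups overlapped, with 15.1 and 19.2 in control, 16.6 and 12.2 in shControl, 15.4 and 17.1 in shMETTL3 and 24.0 and 10.5 in shMETTL14 libraries, the last pair spanning all the others. The interval of the log2 difference between shControl and control cells ran from -1.19 to 0.68, so smaller changes within it were not detectable at this depth. The file lists YTHDC1 at 2 places, and of 487 protein-coding genes listed at several places 61.6% had no read in any library, against 13.7% of genes listed once, so the level of YTHDC1 is uncertain.

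IGF2BP3, an oncofetal reader that is largely silent in most adult tissues, fell in senescence and was lowest with shMETTL14. It spans chr7:23349828-23509995 on the minus strand. Normalized counts were 602 and 621 in the control libraries, 465 and 461 in those with shControl, 418 and 485 for shMETTL3 and 341 and 373 for shMETTL14. Both control libraries lay above all 6 senescent libraries, and both shMETTL14 libraries lay below all the others. Against control cells IGF2BP3 fell 1.32-fold with shControl (log2 fold change -0.40, SE 0.13, adjusted p = 0.0252), 1.35-fold with shMETTL3 (-0.44, SE 0.13, adjusted p = 0.00955) and 1.71-fold with shMETTL14 (-0.78, SE 0.13, adjusted p = 3.69e-05). Within senescent cells shMETTL14 lay 0.38 below shControl on the log2 scale, short of the threshold (adjusted p = 0.0521), and shMETTL3 did not differ from shControl beyond the spread (interval -0.31 to 0.24).

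The fall of IGF2BP3 with shMETTL14 against control cells passed in all 18 alternatives, with log2 fold changes from -0.92 to -0.57. The fall in senescent shControl cells was lost without any of the 4 libraries compared, with adjusted p-values of 0.107 and 0.156 without the first and second control library and 0.163 and 0.161 without the first and second shControl library, and DESeq2 gave 0.0816. With shMETTL3 the fall against control cells was lost without the second control library (0.0711) or the first shMETTL3 library (0.0523). The difference of shMETTL14 from shControl became a call without the first (adjusted p = 0.0198) or the second shMETTL3 library (0.0194), with only the 2 groups in the fit (0.0169) or with at least 10 counts in every library (0.0399).

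IGF2BP2, which is broadly expressed and binds many metabolic mRNAs, rose with shMETTL14. It spans chr3:185360919-185542844 on the minus strand, and IGF2BP2-AS1 on the opposite strand shares 9.09% of that span with 322 reads, 4.93% of those counted for IGF2BP2. Normalized counts were 721 and 753 in the control libraries, 681 and 729 in those with shControl, 862 and 867 for shMETTL3 and 1006 and 909.8 for shMETTL14. The shControl and control libraries overlapped, and all 4 knockdown libraries lay above them. IGF2BP2 rose 1.36-fold with shMETTL14 against shControl (log2 fold change 0.44, SE 0.13, adjusted p = 0.0167) and 1.30-fold against control cells (adjusted p = 0.0221). With shMETTL3 the difference from shControl was 0.29 (adjusted p = 0.111), and the difference between the knockdowns had an interval from -0.12 to 0.42. Library size scaling alone took the rise over control cells with shMETTL14 to 0.24 and lost its call (adjusted p = 0.262). The rise over shControl was lost without the first shMETTL14 library (adjusted p = 0.163) or without the first or second shControl library (0.184 and 0.0955), and that over control cells without the first shMETTL14 library (0.12) or the first or second control library (0.163 and 0.098).

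IGF2BP1, the third of the oncofetal family, had nearly level counts. It spans chr17:47074774-47133507 on the plus strand. Normalized counts were 188 and 192 in the control libraries, 199 and 190.3 in those with shControl, 227 and 226 for shMETTL3 and 213 and 186 for shMETTL14. Both shMETTL3 libraries were above the other 6. No difference passed, although with the offset for length and GC content described below shMETTL3 exceeded control cells (0.32, adjusted p = 0.042). The interval of the log2 difference between senescent shControl and control cells, from -0.27 to 0.34, bounds the size of a change that these libraries could have missed.

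FTO, the eraser that also removes a related mark beside the mRNA cap, rose with shMETTL3. It is the longest of the 10 genes and spans chr16:53737875-54148379 on the plus strand. Normalized counts were 448 and 476 in the control libraries, 421 and 417 in those with shControl, 584 and 656 for shMETTL3 and 396 and 413 for shMETTL14. Both shMETTL3 libraries lay well above the other 6, which fell within 396 to 476. FTO rose 1.48-fold with shMETTL3 against shControl (log2 fold change 0.57, SE 0.13, adjusted p = 0.00258) and 1.34-fold against control cells (adjusted p = 0.0107), and with shMETTL14 it was 1.53-fold lower than with shMETTL3 (-0.62, SE 0.13, adjusted p = 0.000647). Senescent shControl and shMETTL14 cells did not differ from each other beyond the spread (interval -0.33 to 0.23). Without the second shControl library the rise over shControl was just short of the threshold (adjusted p = 0.0546), and that over control cells was lost without the first or second control library (0.123 and 0.0523) or the second shMETTL3 library (0.0674). With an offset for gene length, described below, none of the 3 calls remained (log2 fold change 0.13 against shControl, adjusted p = 0.478).

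RPGRIP1L, a gene of the base of the cilium, starts 25 bases from FTO on the opposite strand. Its raw counts were 64 and 59 in the control libraries, 60 and 54 in those with shControl, 74 and 96 for shMETTL3 and 49 and 40 for shMETTL14. In these raw counts the libraries with shMETTL3 were the highest and those with shMETTL14 the lowest. RPGRIP1L was lower with shMETTL14 than with shMETTL3 (log2 fold change -0.87, SE 0.23, adjusted p = 0.00353) and higher with shMETTL3 than in control cells (0.63, SE 0.21, adjusted p = 0.0205), but it did not pass against shControl (0.35, adjusted p = 0.255). It was singled out after its values were seen and was not followed in the alternative settings, the length offset among them. IRX3, a gene further along the chromosome that is often named together with FTO, had no read in any library. Of the 3 tested genes listed beside FTO, none passed in senescent shControl cells or with shMETTL3 against shControl, and RBL2, a relative of the retinoblastoma protein, fell with shMETTL14.

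ALKBH5, the other eraser and a nuclear enzyme, was highest with shMETTL14. It spans chr17:18086867-18113267 on the plus strand. Normalized counts were 73.5 and 91.4 in the control libraries, 134 and 92.4 in those with shControl, 84.1 and 80.7 for shMETTL3 and 165 and 167 for shMETTL14. The shMETTL14 libraries lay above the other 6, and the first shControl library stood between them and the rest. ALKBH5 was 2.02-fold higher with shMETTL14 than with shMETTL3 (log2 fold change 1.01, SE 0.19, adjusted p = 0.000162) and 2.01-fold higher than in control cells (1.01, SE 0.19, adjusted p = 9.16e-05), and both differences passed in all 18 alternatives. Over shControl it rose 1.47-fold (0.56, SE 0.19, adjusted p = 0.0327). That call was lost without the second shControl library, where the log2 fold change was 0.31 (adjusted p = 0.444), or without the first or second shMETTL14 library (0.157 and 0.122), and with DESeq2 (0.163). The differences of shControl from control cells (0.45, adjusted p = 0.0983) and of shMETTL3 from shControl (-0.45, adjusted p = 0.11) did not pass, and library size scaling alone turned them to -0.053 and 0.17. The former became a call with only shControl and control cells in the fit (0.49, adjusted p = 0.026), and it was 0.71 without the second shControl library.

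FTO was thus highest with shMETTL3 and ALKBH5 with shMETTL14, and each differed between the knockdowns, but the difference of FTO was lost once gene length was allowed for (-0.13, adjusted p = 0.425). The readers YTHDC2 and YTHDF1 also differed between the knockdowns, and did so with the length offset too. YTHDC2 and FTO were higher with shMETTL3, and YTHDF1 and ALKBH5 were higher with shMETTL14.

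These differences between the knockdowns had the direction of the median over genes of similar length. Over all genes tested, the median log2 difference of shMETTL3 from shControl was -0.30 among genes up to 13.5 kb, -0.16 up to 33.3 kb, 0.01 up to 82.0 kb and 0.26 above, in 4 length classes of 3211 genes each. For shMETTL14 against shControl the medians were 0.13, 0.02, -0.05 and -0.07, and for shMETTL14 against shMETTL3 they were 0.40, 0.15, -0.08 and -0.34. Of the 10 genes, YTHDF1, YTHDF2 and ALKBH5 (20.8 to 33.2 kb) lie in the second class, YTHDF3, YTHDC1, YTHDC2 and IGF2BP1 in the next, and IGF2BP2, IGF2BP3 and FTO in the longest. YTHDF3, YTHDC1 and IGF2BP2, which did not pass between the knockdowns, went against their class medians there (0.08, 0.09 and 0.15). The difference of YTHDC2 (-1.12) was much larger in size than its class median. The part of length in any difference was not tested, but 2 further fits, chosen after the data were seen, put the trend with length, or with length and then GC content, of each library into the model as an offset.

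**Figure D3:**
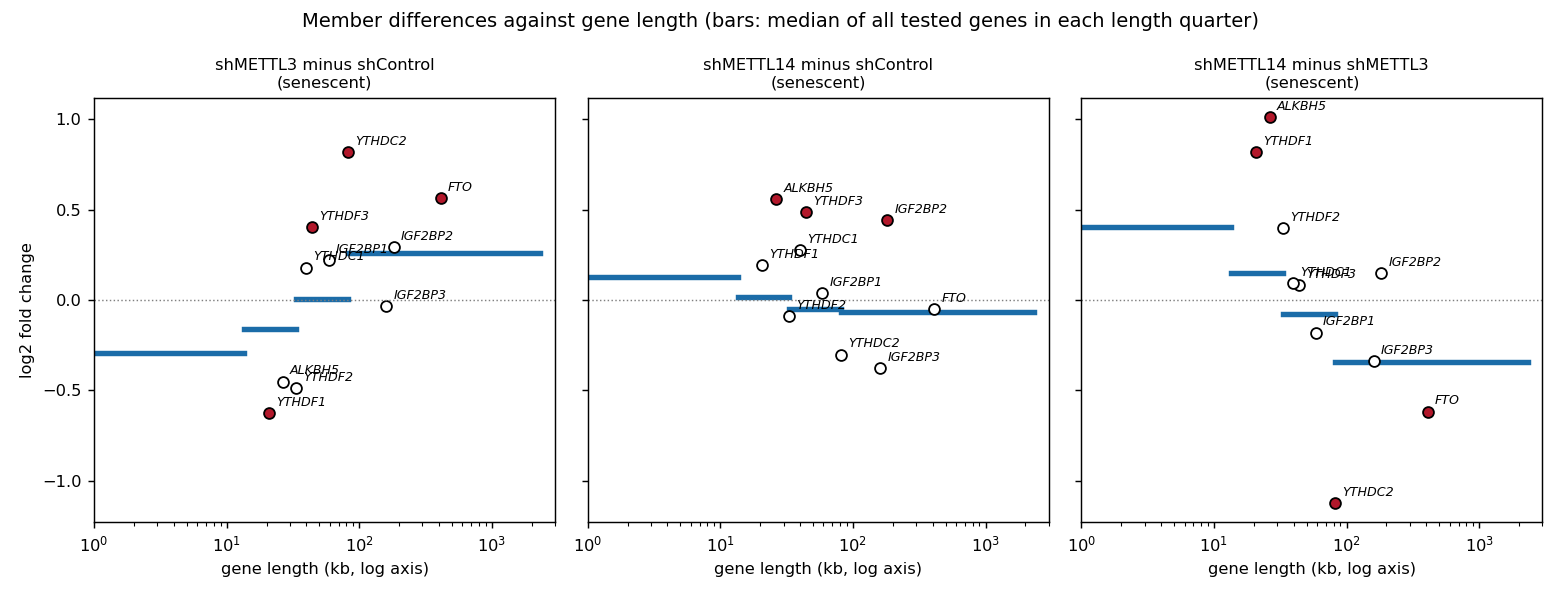
Log2 fold changes of the 10 genes (points, filled where the adjusted p was below 0.05) against gene length in kb on a log axis that starts at 1 kb, for the 3 comparisons among senescent groups. Horizontal bars are the median of all tested genes in each of 4 length classes; with shMETTL3 they climb from -0.30 to 0.26, and between the knockdowns they go down from 0.40 to -0.34.

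With the length offset, the difference of FTO between shMETTL3 and shControl shrank from 0.57 to 0.13 (adjusted p = 0.478) and that between the knockdowns from -0.62 to -0.13 (0.425), and that between shMETTL3 and control cells from 0.42 to 0.19 (0.2), so all 3 calls of FTO were lost. With GC content added the adjusted p-values were 0.706, 0.984 and 0.58. YTHDC2 kept its rise with shMETTL3 over shControl (log2 fold change 0.70, adjusted p = 0.0052, and 0.57, adjusted p = 0.0092, with GC content added) and its difference between the knockdowns (-0.95, adjusted p = 0.00017, and -0.67, adjusted p = 0.0017). Its rise with shMETTL3 over control cells was lost in both fits (0.38, adjusted p = 0.0637, and 0.13, adjusted p = 0.51). ALKBH5 kept its difference between the knockdowns too (0.88, adjusted p = 0.000679, and 0.74, adjusted p = 0.00231) and its rise over shControl with shMETTL14 (0.56 and 0.48, adjusted p = 0.0278 and 0.0466). The fall of YTHDF1 with shMETTL3 was lost (-0.46, adjusted p = 0.16), while its difference between the knockdowns passed with length (0.63, adjusted p = 0.0275) and not with GC content added (0.50, adjusted p = 0.0695). YTHDF3 rose over shControl with each knockdown in both fits, and with GC content added it was also higher with shMETTL14 than with shMETTL3 (0.30, adjusted p = 0.0418). IGF2BP2, which had not differed between the knockdowns, was higher with shMETTL14 than with shMETTL3 in both (0.53 and 0.59, adjusted p = 0.00155 and 0.000232). The fall of IGF2BP3 in senescent shControl cells was -0.28 (adjusted p = 0.0837) with length and -0.32 (adjusted p = 0.0289) with GC content added, the fit in which YTHDC2 too was lower in senescent shControl cells (-0.44, adjusted p = 0.0412) and IGF2BP3 fell with shMETTL3 (-0.37, adjusted p = 0.0203).

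**Figure D4:**
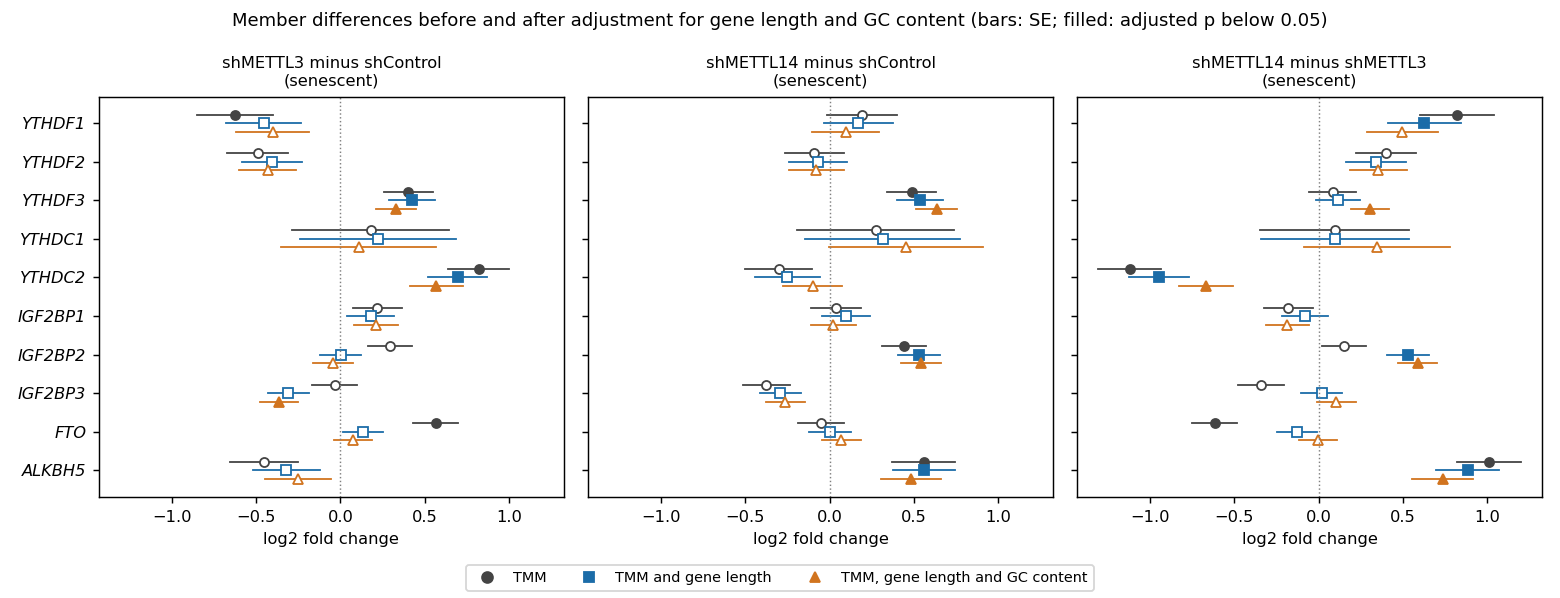
Log2 fold changes (horizontal axes, bars are SE) of the 10 genes among the senescent groups in 3 fits: TMM scaling alone, with an offset for gene length, and with an offset for gene length and GC content; filled symbols passed an adjusted p of 0.05. FTO moves from 0.57 to 0.13 with the length offset for shMETTL3, whereas YTHDC2 between the knockdowns moves from -1.12 to -0.95 and, with GC content, to -0.67, and passes in all 3 fits.

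Genes of the same pathway were taken from lists drawn up by function, with earlier results of these data known. Of all genes tested, 26.6% were called for shControl against control, 23.4% with shMETTL3 and 21.2% with shMETTL14 against shControl. Of the 8 genes of the m6A methyltransferase complex, 1 fell in senescent shControl cells (METTL14). With shMETTL3, METTL3 itself and RBM15B fell, and with shMETTL14, WTAP rose and ZC3H13 fell. WTAP lies wholly within SOD2 on the opposite strand, and RBM15B shares 30.7% of its span with DCAF1, so these calls cannot be told apart from those neighbours. The median log2 fold changes of the complex were -0.06 for shControl against control, 0.11 for shMETTL3 and 0.0040 for shMETTL14, beside the all-gene medians given above. Of 4 other RNA methyltransferases, PCIF1, the cap-adjacent m6A writer, fell in senescent shControl cells and ZCCHC4, a ribosomal RNA writer, rose with shMETTL14. Among the 5 of 7 other AlkB homologs with enough reads, none passed in senescent shControl cells or with shMETTL14, and ALKBH8 rose with shMETTL3. None of the 3 listed partners of YTHDC1 passed with either knockdown, and SRSF3, a splicing factor, fell in senescent shControl cells.

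Among 9 other proteins reported to prefer m6A RNA, HNRNPA2B1, a nuclear RNA-binding protein, was called in 2 of the 3 comparisons. Its normalized counts were 628 and 683 in the control libraries, 520.2 and 509.7 in those with shControl, 455 and 493 for shMETTL3 and 382 and 377 for shMETTL14. No group overlapped another. HNRNPA2B1 fell in senescent shControl cells (log2 fold change -0.35, SE 0.13, adjusted p = 0.0487) and fell further with shMETTL14 (-0.44, SE 0.13, adjusted p = 0.0192). The first of these calls was lost without any of the 4 libraries compared (adjusted p = 0.117 and 0.307 without the first and second control library, 0.219 and 0.244 without the first and second shControl library) and without the first shMETTL14 library (0.0757), and the second without the first or second shControl library (0.131 and 0.106) or the first or second shMETTL14 library (0.0699 and 0.0661). DESeq2 also lost the first (0.131), and library size scaling alone took the second to -0.087 (0.743). The other calls were FXR2, higher in senescent shControl cells, PRRC2A, lower with shMETTL3, and FMR1 and EIF3A, lower with shMETTL14, and the medians of the list were 0.16, -0.21 and -0.10 in the 3 comparisons.

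In the CCR4-NOT complex, which YTHDF2 recruits to marked mRNA, CNOT2 and CNOT8 rose in senescent shControl cells, and CNOT2 also passed with shMETTL3. Its normalized counts were 183 and 186 in the control libraries, 351 and 352 in those with shControl, 437 and 579 for shMETTL3 and 299 and 293 for shMETTL14. The groups were apart, with control cells lowest. CNOT2 rose 1.90-fold in senescent shControl cells (log2 fold change 0.93, SE 0.15, adjusted p = 2.67e-05) and a further 1.45-fold with shMETTL3 (0.53, SE 0.14, adjusted p = 0.00704), the latter lost without the second shMETTL3 library (log2 fold change 0.29, adjusted p = 0.157), without the first or second shControl library (0.0704 and 0.079) and with the length offset (0.0716). With library size scaling alone, the rise of CNOT2 in senescent shControl cells was 0.43 and did not pass (adjusted p = 0.0553). CNOT8 rose 2.00-fold in senescent shControl cells (adjusted p = 0.0014), CNOT7 rose with shMETTL3 and CNOT6L fell with shMETTL14, with medians of -0.08, 0.16 and 0.13 for the complex. Of 13 stress granule genes, whose proteins gather with YTHDF readers, DDX3X rose in senescent shControl cells. USP10 and ATXN2 rose and G3BP1 and G3BP2 fell with shMETTL3, and ATXN2L and PABPC1 rose and FMR1 fell with shMETTL14, with medians of 0.012, 2.29e-05 and -0.11 for the list.

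The last list holds genes of RNAs known to be bound by IGF2BP proteins. Of 5 listed, IGF2, MYC, CD44 and HMGA2 rose in senescent shControl cells, where 13.3% of all genes tested rose. The 5 were chosen with earlier results of these data known, so this count is not a result about RNAs bound by IGF2BP proteins. The medians of the 5 were 0.99 for shControl against control, -0.20 for shMETTL3 and -0.61 for shMETTL14, and ACTB fell with shMETTL3. HMGA2, a chromatin protein, had 1941 and 2041 normalized counts in the control libraries, 5366 and 4988 in those with shControl, 7054 and 8048 for shMETTL3 and 3005 and 3759 for shMETTL14. Its groups did not overlap. It rose 2.60-fold in senescent shControl cells (log2 fold change 1.38, SE 0.14, adjusted p = 2.1e-08), rose with shMETTL3 (0.54, SE 0.14, adjusted p = 0.00559) and fell with shMETTL14 (-0.61, SE 0.14, adjusted p = 0.00229). The rise with shMETTL3 was lost without the second shControl library (adjusted p = 0.124) and with the length offset (0.0942), and the fall with shMETTL14 without the first shControl library (0.0567). LOC100129940 on the opposite strand shares 21.8% of the HMGA2 span, so the 2 cannot be told apart there.

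CD44, a hyaluronan receptor, had normalized counts of 2747 and 2737 in the control libraries, 5542 and 5312 in those with shControl, 6012 and 5817 for shMETTL3 and 2263 and 2901 for shMETTL14. With shMETTL14 the libraries lay on either side of the control cells. CD44 rose in senescent shControl cells (log2 fold change 0.98, SE 0.14, adjusted p = 3.82e-06) and fell with shMETTL14 (-1.07, SE 0.14, adjusted p = 2.41e-06). IGF2, a fetal growth factor, had 40.7 and 15.7, 288 and 210.3, 176 and 155, and 83.0 and 102 normalized counts in the same order of groups. All 6 senescent libraries lay above control cells, with shControl the highest. IGF2 rose by 3.14 on the log2 scale in senescent shControl cells (SE 0.25, adjusted p = 1.94e-10, and 3.98 or 2.61 without the first or second control library) and fell with shMETTL14 (-1.43, SE 0.22, adjusted p = 1.84e-05).

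With shMETTL3, IGF2 fell (log2 fold change -0.59, SE 0.20, adjusted p = 0.0343), but not with DESeq2 (adjusted p = 0.179) or with the length offset (0.237). The log2 fold change was -0.35 without the first shControl library and -0.52 without the second shMETTL3 library, and scaling to library size alone turned it to 0.029. The INS-IGF2 row covers the whole IGF2 span and holds the same 1012 reads, so the reads of the 2 rows are the same. MYC, the proto-oncogene, had 34.5 and 26.1 normalized counts in the control libraries, 57.9 and 62.3 in those with shControl, 62.6 and 42.7 for shMETTL3 and 111 and 103 for shMETTL14. Its levels with shMETTL14 were the highest. MYC rose in senescent shControl cells (0.99, SE 0.26, adjusted p = 0.00546) and again with shMETTL14 (0.83, SE 0.22, adjusted p = 0.00831). Library size scaling alone lost the first of these calls (0.49, adjusted p = 0.153), and DESeq2 lost the second (0.0683). The first call was lost without the second control library (adjusted p = 0.0828) or the second shControl library (0.0503), and the second without the first or second shControl library (0.0869 and 0.0614) or the first shMETTL14 library (0.103).

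**Figure D5:**
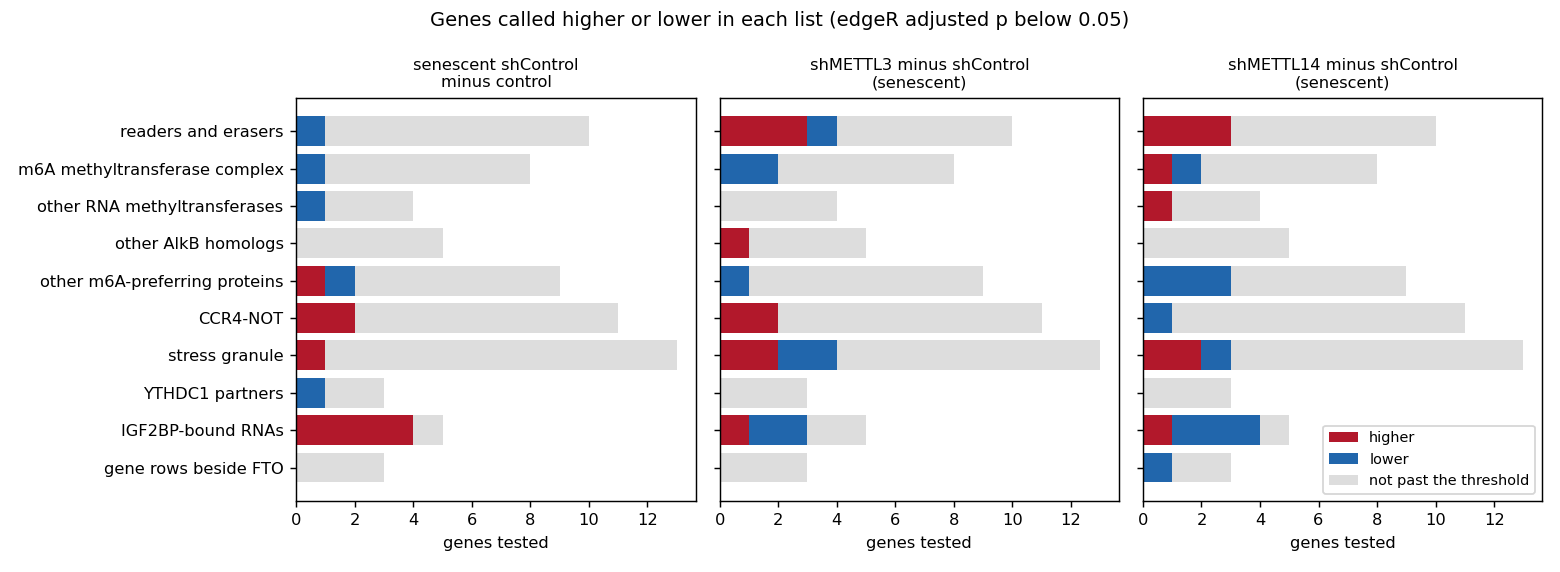
Number of genes tested (horizontal axes) in each list that were called higher, lower or not past an edgeR adjusted p of 0.05, in 3 comparisons. Of all genes tested 26.6%, 23.4% and 21.2% were called in these comparisons; among the readers and erasers 1, 4 and 3 of 10 were called, and among the RNAs bound by IGF2BP proteins 4, 3 and 4 of 5.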

How the data were processed

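Reads from 8 fastGRO libraries of IMR90 cells were aligned to hg19 by the authors (STAR is named in the submitters' processing notes). The deposited values are raw counts per gene over the whole gene body, introns included, made by the authors with HOMER without normalization and with replicates apart. The file header states a strand setting. Yet of 34 pairs of well-covered genes nested on opposite strands, the outer gene held fewer reads than the inner one in only 1. The counts were therefore read as not separating strands, and the exception was not followed up. A gene length in bases is also given. No value column was left unmapped.

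Groups were tested on these counts in edgeR 4.0.16 under R 4.3.3 (TMM, filterByExpr with a minimum count of 10, 1 quasi-likelihood fit over the 4 groups, Benjamini-Hochberg adjustment, threshold 0.05). With 2 libraries a group, p-values measure the spread between these libraries. The biological coefficient of variation was 10.6%, and the variance between replicates over sampling noise was 1.72 in control, 1.56 in shControl, 5.26 in shMETTL3 and 2.52 in shMETTL14 cells. Alternatives were DESeq2 1.42.0, library size alone, upper quartile scaling, no ribosomal rows, other count filters, a block for replicate number, a fit of only the groups in question, each library left out in turn and, chosen after the data were seen, lowess offsets (span 0.3) for gene length and GC content, which was known for 12807 of 12844 genes. Scripts were tested on simulated data.

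The genes and lists were chosen with earlier results of these data known. All 10 genes are named. Genes of the other function lists are valued where called in at least 2 of the 3 main comparisons, at most 4 a list. Values of METTL3 and METTL14, the targets of the hairpins, and of CNOT8 and KRT18 were given besides. The other cell type and senescence markers are given as calls or reads only. RPGRIP1L and the example APBA2 were singled out after their values were seen. Spiked-in Drosophila nuclei were not used here, and differences are relative to the other genes of a library.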

Additional observations from a re-analysis of the deposited data

Results flagged for a closer look

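Of the 10 genes, 4 differed between the knockdowns by a direct test (edgeR's quasi-likelihood test of shMETTL14 against shMETTL3), against 35.2% of all genes tested, and are given here as values. The log2 fold change was 0.82 for YTHDF1, -1.12 for YTHDC2, -0.62 for FTO and 1.01 for ALKBH5, with adjusted p-values of 0.00459, 3.34e-05, 0.000647 and 0.000162. YTHDC2 and ALKBH5 passed the threshold in all 18 alternative settings. FTO did not pass with the offset for gene length, where its value was -0.13. YTHDF1 did not pass with the offset for length and GC content, where its value was 0.50, with library size alone (0.56, adjusted p = 0.0693) or without the first shMETTL14 library (0.74, adjusted p = 0.0651).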

How the results depend on the processing

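Scaling to library size alone moved the median of all genes tested by -0.50, 0.61, 0.35, -0.26, 0.12 and -0.14 on the log2 scale (shControl against control, shMETTL3 and shMETTL14 against shControl, shMETTL14 against shMETTL3, and shMETTL3 and shMETTL14 against control). It called 5 readers and erasers in senescent shControl cells, all lower, beside 39.0% of all genes lower. Among differences that were called or at least 0.3 on the log2 scale, this shift of all genes turned YTHDF1 (-0.030), YTHDF3 (-0.14) and ALKBH5 (-0.053) in senescent shControl cells, YTHDF2 (0.13), ALKBH5 (0.17) and IGF2 (0.029) with shMETTL3, and YTHDC2 (0.039) with shMETTL14. Smaller differences were followed only with the offsets. The offsets turned IGF2BP3 between the knockdowns from -0.34 to 0.017 (length) and 0.10 (length and GC content).

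Of the 10 genes, 1 was called in senescent shControl cells against control cells. DESeq2 called 0 (16.7% of all genes), no filter 0 (16%), an adjusted p below 0.01 0 (17.6%), the length offset 0 (27.3%), the length and GC offset 2 (28.4%) and a fit of only these groups 4 (37%). For shMETTL3 against shControl the 4 calls became 2 with an adjusted p below 0.01 (13.6% of all genes), DESeq2 (13.1%), no filter (13.9%), only these groups (20.5%) or the length offset (19.4%). For shMETTL14 against shControl the 3 calls became 0 with an adjusted p below 0.01 (12.2%) and 1 with DESeq2 (11.8%). For shMETTL3 against control the 4 calls became 2 with an adjusted p below 0.01 (29.1%) or the length offset (40.3%).

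Leaving out each library in turn gave 0 to 2 calls for shControl against control (13.4% to 31.9% of all genes), 2 to 4 for shMETTL3 (10.9% to 29.3%) and 0 to 4 for shMETTL14 against shControl (9.34% to 26.5%), 3 to 5 between the knockdowns (17.7% to 39.7%), 1 to 4 for shMETTL3 (27.9% to 43.9%) and 3 to 6 for shMETTL14 against control (26.1% to 45.6%). Where 1 library of a group remained, it was assumed to vary like the others. The replicate block gave 1, 5, 4, 5, 4 and 6 calls in the order above, beside 26.5%, 23.4%, 21%, 35%, 40.2% and 40.2% of all genes. It added YTHDF2 with shMETTL3 (adjusted p = 0.043) and IGF2BP3 with shMETTL14 against shControl (0.044) and between the knockdowns (0.0468). Between pairs of groups, the replicate differences correlated over genes by -0.06 to 0.29, above 0.1 in 2 of 6 pairs. With 1 replicate difference per group, this does not settle whether replicate numbers pair the libraries. YTHDC1 had the fewest reads of the 10 genes, 131 in all, and whether depth or its listing at 2 places limits it was not tested.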
